A study of Mus musculus with 199 samples.

Results

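The 5 genes described here are the adult beta globins Hbb-bs and Hbb-bt, the adult alpha globins Hba-a1 and Hba-a2, and Alas2. They are 5 of the 31581 mouse genes in the deposited count table, taken from it by symbol. They were chosen by measured values, since the CPM levels of Hbb-bs and Hba-a2 were already known to be far higher in the liver captures of these data than in cultured spheroids. The levels of these genes in the 10-cell libraries of liver and spheroids, and of both livers, are therefore given as a description and carry no test. Values that did not choose the genes (ratios between globins, relations across libraries, and the pool libraries) are tested. Comparisons of levels between pools and captures include the capture levels, so their adjusted p values for these genes are a description only.

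The libraries came from mouse small-cell lung cancer cells. The KP1 line, with the genotype Rb1-/-Trp53-/-, was sampled as spheroids in culture (28 libraries) and as colonies in the livers of nude mice, the immunocompromised hosts (33 libraries), and of F1 mice, the immunocompetent hosts (31 libraries). Each of these libraries was made from 10 cells taken by laser capture from cryosections, followed by poly(A) PCR amplification of the cDNA. Pool-and-split controls, in which pooled material was divided into 10-cell equivalents, numbered 20 for KP1 spheroids, 35 for nude liver and 24 for F1 liver. A further 24 libraries of 10 cells came from spheroids of the pre-cancerous RPC line (Rb1-/-Trp53-/-p130-/+Crebbp-/-). There was 1 bulk library each of spheroids of KP1, KP2 (Ptch1+/lacz), KP3 (Axin2+/lacz) and KP5 (BAT-GAL), all on the Rb1-/-Trp53-/- genotype and all made by another protocol. The deletion of Rb1 and Trp53 is therefore shared by every group. The labels do not give the number of mice, the strain of either host, or the number of pools, and both liver groups rest on the same KP1 line. All p-values thus speak for libraries, whose spread may be technical, and not for animals. The smallest liver library held 718208 gene counts.

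Adult haemoglobin is built from alpha and beta chains that each hold a haem group, and it fills the circulating red cell. Mature mouse red cells have no nucleus, and the youngest of them, the reticulocytes, still carry globin mRNA. Alas2 encodes the erythroid form of the enzyme that starts haem synthesis and is made while the red cell precursor loads its haemoglobin. Blood is the usual source of these transcripts in solid tissue. Globin counts in a tissue section are therefore commonly taken as a measure of blood RNA.

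The identity of the globin copies limits how finely they can be told apart. On GRCm38, Hbb-bs (chromosome 7, 103826534 to 103828096) and Hbb-bt (chromosome 7, 103812524 to 103813996) lie on the minus strand of the beta globin cluster. Hba-a1 (chromosome 11, 32283511 to 32284465) and Hba-a2 (chromosome 11, 32296489 to 32297298) lie on the plus strand of the alpha cluster, and Alas2 (chromosome X, 150547375 to 150570638) is also on the plus strand. In the GENCODE M21 transcripts, the coding sequences of Hbb-bs and Hbb-bt, both 441 bases, differ at 1 base, and those of Hba-a1 and Hba-a2, both 426 bases, also differ at 1 base. The 60 bases around each difference are shown because they hold the only coding position that separates each pair, which is in capitals. Positions count from 1 at the A of the start codon. The change from Hbb-bs to Hbb-bt is C417T, and the change from Hba-a1 to Hba-a2 is C381T.
Hbb-bs: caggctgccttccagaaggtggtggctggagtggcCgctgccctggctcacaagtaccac
Hbb-bt: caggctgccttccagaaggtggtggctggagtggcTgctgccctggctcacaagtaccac
Hba-a1: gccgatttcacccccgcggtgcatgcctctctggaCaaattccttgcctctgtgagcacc
Hba-a2: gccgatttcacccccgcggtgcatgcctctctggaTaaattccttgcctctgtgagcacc

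Over whole transcripts, 65.8% of the 50-base words of Hbb-bs also occurred in Hbb-bt, and 58.3% of those of Hbb-bt occurred in Hbb-bs. For the alpha pair, 67.5% of the words of Hba-a1 occurred in Hba-a2 and 86.9% of those of Hba-a2 in Hba-a1. A read from a shared stretch has to be divided between the copies by the counting model, so the split inside each pair is less certain than the sum of the pair. Of the deposited values of the 4 globins above 0, 87.5% were not whole numbers (378 of 432), against 3 of 24 for Alas2. The division follows the reference sequence. The reference carries Hbb-bs and Hbb-bt, while some laboratory strains carry other alleles at these places.

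The 120 bases before the RefSeq start sites on GRCm38.p6 are shown for 3 of the globin genes, to set the beta and alpha promoters side by side. The RefSeq starts lie downstream of the GENCODE gene starts given above, so the windows of Hbb-bs and Hba-a1 lie inside the GENCODE genes and that of Hbb-bt in part. Capitals mark the letters ACACCC, known as the CACC box, the letters CCAAT of the box of that name, and the letters ATATAA of the TATA box, each searched on both strands.
Hbb-bs, chr7:103827929-103828048, minus strand: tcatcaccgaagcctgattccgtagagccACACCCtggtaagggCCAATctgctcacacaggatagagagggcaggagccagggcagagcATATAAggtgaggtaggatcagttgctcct
Hbb-bt, chr7:103813924-103814043, minus strand: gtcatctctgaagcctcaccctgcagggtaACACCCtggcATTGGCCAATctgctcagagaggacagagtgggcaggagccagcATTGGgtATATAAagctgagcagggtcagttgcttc
Hba-a1, chr11:32283552-32283671, plus strand: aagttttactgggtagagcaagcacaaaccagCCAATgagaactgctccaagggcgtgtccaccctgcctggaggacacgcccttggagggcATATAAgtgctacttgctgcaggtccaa

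The TATA letters stood 30 bases before the start in Hbb-bs, 29 in Hbb-bt and 28 in Hba-a1. Both beta promoters held the CACC letters, and all 3 held CCAAT. Among 32851 RefSeq promoter windows of the same length, 7.06% held ACACCC, 21.3% held CCAAT and 4.47% held ATATAA, with no overlap between the motifs in the windows shown. The longer RefSeq promoter entries from which the Hba-a1 and Hba-a2 windows were taken were identical over the 297 bases they share. The Alas2 window held none of these letters and 1 GATAA, the letters of a GATA site, on the minus strand, which 10.5% of windows held. A match is a description of the letters only.

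The globins were close to absent from cultured cells. Levels are given as CPM, counts scaled to a common gene total per library, with the ERCC spike-in rows left out. In KP1 spheroid 10-cell libraries, Hbb-bs had 6 counts in 1 of 28 libraries, Hba-a1 and Hba-a2 had 101.31 and 64.69 counts in 1 other library, and Hbb-bt and Alas2 had none. None of the 20 KP1 spheroid pools and none of the 24 RPC libraries held a globin count. The bulk libraries held between 0 and 8 globin counts each. With the 4 globins added, at most 0.00313% of the gene counts of a spheroid library were globin.

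Hbb-bs, the more abundant beta globin here, ranged from 0 to 1706 CPM in the 33 nude liver captures, with a median of 140 CPM and counts in 32. In the 31 F1 liver captures it ranged from 0 to 13490 CPM, with a median of 622 CPM and counts in 29. Summed over libraries, Hbb-bs made up 286 CPM of nude and 2420 CPM of F1 liver counts, against 0.0481 CPM in KP1 spheroids. The liver ranges overlap, since 9 of the 31 F1 captures lay above the highest nude capture and the others within the nude range. In such libraries fewer cells of a type and less RNA per cell cannot be told apart.

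Hba-a2, an alpha globin, ranged from 0 to 1278 CPM in nude captures (median 141) and from 0 to 11663 CPM in F1 captures (median 352). Hba-a1, its near-identical copy, ranged from 0 to 1357 CPM (median 120) and from 0 to 6475 CPM (median 266). The captures of both livers overlapped for both alpha genes, with 8 F1 captures above every nude capture for Hba-a2 and 7 for Hba-a1.

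Hbb-bt, the minor adult beta globin of this pair, stood apart from the other globins in nude liver. It had counts in 15 of 33 nude captures, with a median of 0 and a maximum of 445 CPM, and in 27 of 31 F1 captures, with a median of 103 and a maximum of 4902 CPM. Its summed level was 29.5 times higher in F1 than in nude captures, against 8.45 times for Hbb-bs, 7.71 times for Hba-a2 and 4.35 times for Hba-a1. Against the 0 counts of KP1 spheroids, with a floor of 3 counts over the group, Hbb-bt was at least 1104-fold higher in nude and at least 32520-fold higher in F1 captures. Nude capture 15 held 52.0% of the Hbb-bt counts of its group, and without it, an alternative chosen after seeing the data, the F1 level was 59.5 times the nude level and the nude bound was 547-fold. Beside these ratios, 2 F1 captures (replicates 24 and 25) held no globin count at all, and 1 nude capture (replicate 24) held only 2.

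Across genes, edgeR's quasi-likelihood test called 34.1% of 7834 genes between nude liver and spheroid captures, 12.6% of 7309 between F1 liver and spheroid captures, and 19.2% of 7064 between the livers (Benjamini-Hochberg adjusted p under 0.05). The genes called higher in liver were 17.7% (nude) and 7.73% (F1) of those tested, and 16.3% and 4.91% were lower. Between the livers, 11.2% were higher in F1 and 7.98% lower. The filter on low counts passed 3 of the 5 genes in the nude comparison and 4 in both others. Hbb-bt and Alas2, or Alas2 alone, were left out. The genes had been chosen with these comparisons known, so nothing is read from their rows, and the fitted log2 differences are given as values only. They were 3.29 ± 0.73 (SE) for Hbb-bs, 5.03 ± 1.02 for Hbb-bt, 2.89 ± 0.69 for Hba-a2 and 2.03 ± 0.69 for Hba-a1 between F1 and nude captures. The F1 libraries fall into 2 sets that the labels do not name, 26 captures with at least 100 CPM of the pseudogene Rpl19-ps11 and 5 with less. With the 5 alone, the values for Hba-a1 and Hba-a2 were -0.70 and -0.37, and those for Hbb-bs and Hbb-bt fell to 0.66 and 2.08. Whether the sets are batches is not given by the labels, and their part in the result was not tested.

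The summed 4 globins were used as a measure of blood RNA in a library. They made up a median of 0.0551% of gene counts in nude captures (highest 0.374%), 0.126% in nude pools (highest 0.936%), 0.162% in F1 captures (highest 3.27%) and 0.0334% in F1 pools (highest 2.06%). In F1 liver the share was uneven: 7 of 31 captures held at least 1%, from 1.56% to 3.27%, the next held 0.737%, and these 7 carried 84.2% of all globin counts of the F1 captures. In F1 pools the gap was wider, with 5 of 24 pools between 1.38% and 2.06% (replicates 6, 7, 8, 22 and 23), the next at 0.108%, and 93.5% of the group's globin counts in those 5. No nude library reached 1%. Among nude pools, 4 (replicates 26 to 29) held 0.569% to 0.936% and the next held 0.319%.

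**Figure D1:**
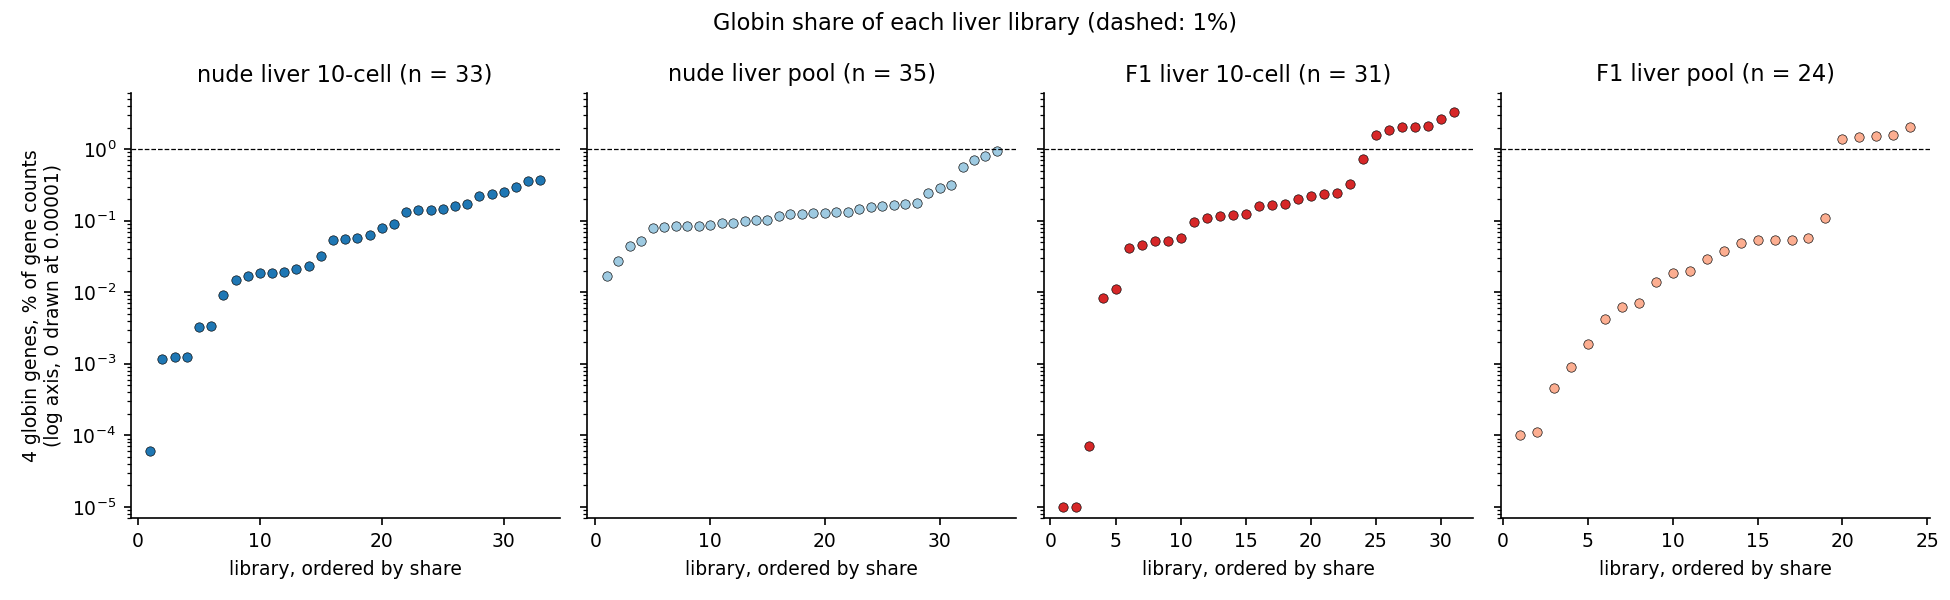
Share of the gene counts taken by the 4 globin genes, in percent on a log axis, for each liver library, ordered from low to high within its group. Each point is a library, the dashed line marks 1%, and libraries with no globin are drawn at the bottom of the axis. The F1 pools show a step between 0.108% and 1.38%, whereas most nude pools lie near 0.1%.

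Pools were compared with captures for the evenness of globin levels. In nude liver the pools spanned a 54.8-fold range (34.8-fold without pool 10, the lowest) and every pool held globin, as did every capture. The captures spanned a 6311-fold range, which rests on capture 24 with 0.593 CPM. Without it the range was 320-fold, from 11.7 CPM upwards. As a measure of spread, the distance of each library's log2(CPM + 1) from its group's median was taken without its sign. It averaged 2.78 in captures and 1.44 in pools for Hbb-bs. It averaged 2.07 and 0.998 for Hba-a2 and 2.25 and 1.05 for Hba-a1. The median over all 9397 genes was 1.45 in captures and 1.47 in pools. These differences of 1.34 ± 0.44 (SE), 1.07 ± 0.31 and 1.21 ± 0.35 did not pass the test across all genes, with limma adjusted p of 0.139, 0.0895 and 0.0865, and 0.777% of genes were called (0.564% with more spread in captures and 0.213% with less). Hbb-bt went the other way, at 2.05 in captures and 2.57 in pools (adjusted p 0.723).

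In F1 liver the pools did not have the smaller spread. The averaged deviation of Hbb-bs was 2.67 in captures and 3.65 in pools, and it was likewise larger in pools for Hba-a1, Hba-a2 and Hbb-bt, with limma adjusted p from 0.382 to 0.860 and 1.48% of 8759 genes called (0.537% with more spread in captures and 0.948% with less). The medians over all genes were 1.56 in captures and 1.66 in pools. Alas2 averaged 19.5 CPM in F1 captures and 0.193 CPM in F1 pools, so it passed the filter of 5 CPM through the captures alone. With counts in 2 of 24 pools, its pool spread was held near 0 by the floor. Nothing is therefore read from its values of 1.17 in captures and 0.118 in pools (limma adjusted p 0.255). Aliquots labelled as F1 pool controls differed in globin share by up to 20371-fold, with 5 of 24 pools holding no beta globin count. That fold rests on pool 21, the lowest, with 2 alpha counts and no beta count (1.01 CPM). Without it the range was 18573-fold, and it then rests on pool 2 with 4 alpha counts (1.11 CPM). The labels do not say which aliquots came from the same pool.

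Pool levels were tested, as the pools had not chosen the genes. Hbb-bs lay between 1.91 and 2916 CPM in nude pools (median 475) and between 0 and 10039 CPM in F1 pools (median 75.9). The F1 pools enclosed the nude range: 5 lay above the highest nude pool and 5 below the lowest. The fitted log2 difference of F1 against nude pools was 1.90 ± 0.70 (SE), and it did not pass the test (edgeR adjusted p 0.0608, with 12% of 6010 genes called, 8.2% higher and 3.79% lower), whereas the median was lower in F1 pools. Hbb-bs passed under 4 of 9 alternatives, DESeq2 among them (adjusted p 0.0182), and its fitted difference was negative with limma-voom (-2.11, adjusted p 0.0903) and with the replicate block (-1.39, adjusted p 0.662). Mean and median therefore point in opposite directions for Hbb-bs, and likewise for Hba-a2, with a fitted difference of 1.00 ± 0.64 (adjusted p 0.314) and medians of 72.6 CPM in F1 and 373 CPM in nude pools.

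Hba-a1 had medians of 30.5 CPM in F1 and 320 CPM in nude pools and a fitted difference of 0.37 ± 0.66 (edgeR adjusted p 0.764). Hbb-bt rose in F1 pools by 3.72 ± 1.04 on the log2 scale (edgeR adjusted p 0.0120). Its counts were present in 15 of 24 F1 pools and 20 of 35 nude pools, with maxima of 2810 and 339 CPM and medians of 3.54 and 1.26 CPM. The call for Hbb-bt was lost in limma-voom (1.53, adjusted p 0.38) and with a replicate block (0.98, adjusted p 0.866). Limma-voom gave lower levels in F1 pools for Hba-a1 (-3.46, adjusted p 0.000657) and Hba-a2 (-2.37, adjusted p 0.0176). The filter had again left out Alas2.

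Between pools and captures of the same liver, none of the 4 globins tested passed. These comparisons, and their contrast between the livers, include the capture levels that chose the genes. Their adjusted p values for the globins are therefore a description only. In nude liver the pools lay higher, by 1.20 ± 0.51 for Hbb-bs, 1.42 ± 0.45 for Hba-a2, 1.12 ± 0.48 for Hba-a1 and 0.56 ± 0.90 for Hbb-bt, with edgeR adjusted p of 0.245, 0.0891, 0.236 and 0.813 and 1.25% of 6299 genes called (0.921% higher and 0.333% lower in pools). Hba-a2 passed under 4 of the 7 alternatives run for it, DESeq2 among them (adjusted p 0.016). Hbb-bs and Hba-a1 each passed under 1 of 7, limma-voom (adjusted p 0.0101 and 0.00583). In F1 liver the fitted differences were -0.39 to -0.98, with adjusted p from 0.638 to 0.858 and 7.22% of 6439 genes called (5.53% higher and 1.69% lower in pools). With low Rpl19-ps11 libraries alone they were 2.45 to 3.26, and none passed (adjusted p from 0.747 to 0.791). The contrast of these differences between the livers was fitted after the opposite signs had been seen. It gave -1.59 ± 1.01 for Hbb-bs, -2.13 ± 0.94 for Hba-a2, -1.90 ± 0.95 for Hba-a1 and -1.48 ± 1.34 for Hbb-bt, with edgeR adjusted p from 0.170 to 0.588 and 5.27% of 9479 genes called (3.21% higher and 2.07% lower). These genes split into 304 higher and 196 lower, and into 486 and 189 with RLE scaling, which moved the median of all genes from 0.04 to 0.23.

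Ratios between globins are taken within a library, and they differed between the captures of the livers. Alpha counts made up 65.8% ± 20.5 (SD, n = 29) of globin counts per nude capture and 45.2% ± 15.5 (SD, n = 28) per F1 capture, over libraries with at least 50 globin counts. Alpha counts exceeded beta counts in 26 of the 33 nude captures and in 8 of the 31 F1 captures. Captures with at least 50 globin counts ran from 20.6% to 99.965% in nude and from 15.0% to 91.7% in F1 liver, so the livers overlapped. The difference in means of -20.6 percentage points passed the test (two-sided permutation test, adjusted p 0.00132 over 12 share tests). As a share of the summed counts of each group, which gives more weight to libraries rich in globin, it was -12.9 points. In pools the shares were 64.3% ± 19.8 (n = 35) and 48.7% ± 26.5 (n = 20), a difference of -15.6 points (permutation test, adjusted p 0.0396). The pool result was lost with the replicate block (-10.6 points, adjusted p 0.574) and with a minimum of 20 counts (-10.9 points, adjusted p 0.239). It was also lost per transcript length (-15.0 points, adjusted p 0.0504) and with F1 libraries of high Rpl19-ps11 alone (-14.3 points, adjusted p 0.0826). In the captures of that set the mean was 46.4% ± 15.2 (n = 24), with a difference of -19.4 points (permutation test, adjusted p 0.00172).

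Within the beta pair, Hbb-bt made up 6.72% ± 9.48 (SD, n = 24) of beta counts per nude capture and 22.4% ± 19.1 (n = 28) per F1 capture, a difference of 15.7 points (permutation test, adjusted p 0.00216). Hbb-bt had no count in 10 of those 24 nude captures and in 1 of the 28 F1 captures. In pools the shares were 9.61% ± 17.6 (n = 33) and 17.2% ± 26.2 (n = 18), a difference that did not pass the test (adjusted p 0.460). Single pools ran from 0 to 95.5% in F1 and from 0 to 67.7% in nude liver.

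Within the alpha pair, Hba-a1 made up 49.96% ± 11.1 (SD, n = 29) of alpha counts per nude capture and 37.8% ± 13.7 (n = 28) per F1 capture (difference -12.2 points, permutation test, adjusted p 0.00216). The pools gave 47.6% ± 11.7 (n = 35) and 34.3% ± 19.0 (n = 18), a difference of -13.3 points (adjusted p 0.00750). The call in pools was lost with the replicate block (-15.2 points, permutation test, adjusted p 0.0618). With a minimum of 20 counts the difference in captures was -9.15 points (adjusted p 0.0642). Of the 5 F1 captures with low Rpl19-ps11, 4 reached the minimum, at 36.4%, 39.6%, 61.5% and 72.7% (the last from 69 alpha counts). None of the 6 comparisons of pools with captures of the same liver passed for any of the 3 ratios (adjusted p from 0.581 to 0.763). Both splits inside a pair rest on how shared reads were divided, as the sequences above show, whereas the alpha share does not.

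**Figure D2:**
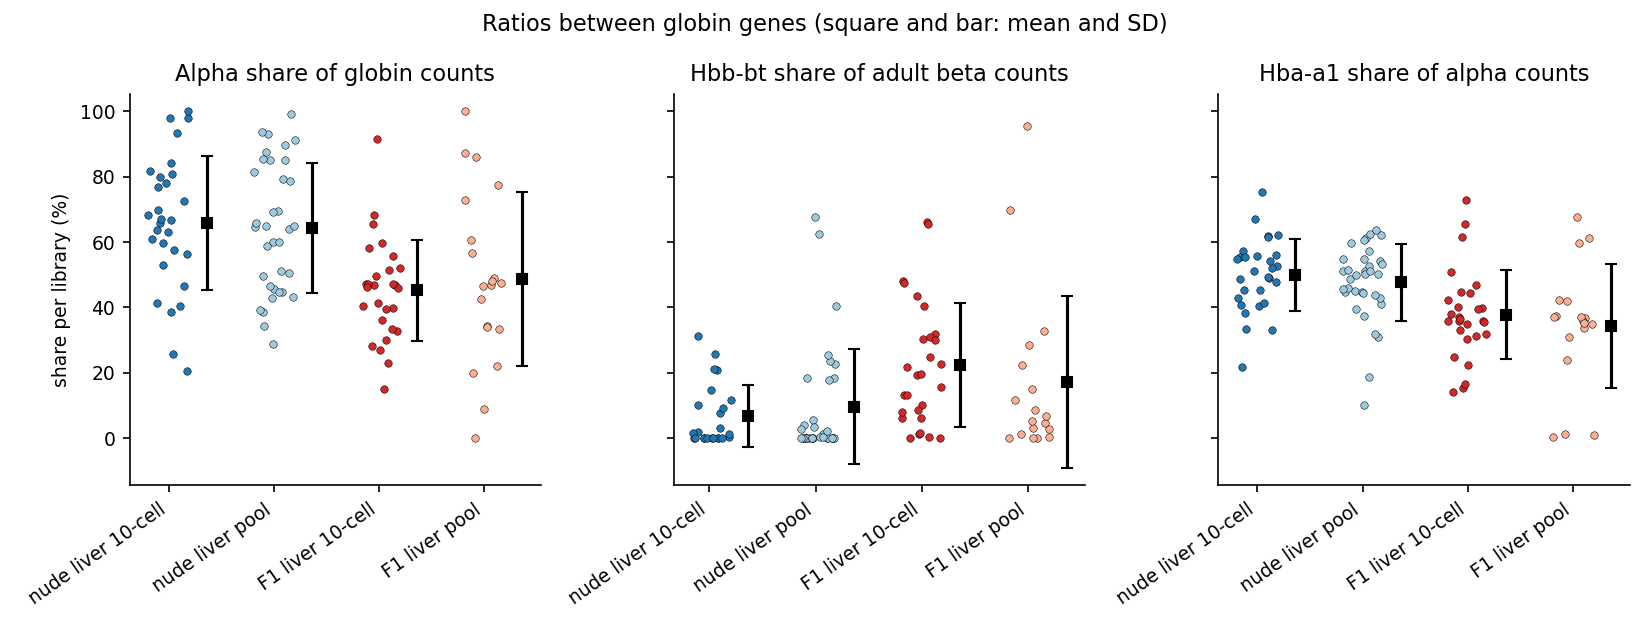
Share per library, in percent, of alpha counts among the 4 globins, of Hbb-bt among the beta globins and of Hba-a1 among the alpha globins, for the 4 liver groups. Points are libraries with at least 50 counts in the denominator, and squares with bars are the mean and SD. The alpha share averages 65.8% in nude and 45.2% in F1 captures, and pools lie close to the captures of their own liver.

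Alpha and beta globin rose and fell together from library to library. Over the 33 nude captures, the Spearman rho of Hbb-bs with Hba-a1 was 0.742 and with Hba-a2 was 0.704, on log2(CPM + 1) (Pearson r 0.722 and 0.696, permutation test, adjusted p 5.4e-05 for each rho and 9e-05 for each r). Over the 31 F1 captures, rho was 0.866 and 0.931 (r 0.924 and 0.950, with the same adjusted p values). Without the 2 libraries farthest from the median of Hbb-bs, r was 0.658 and 0.613 in nude and 0.887 and 0.923 in F1 captures. In all, 27 relations of Hbb-bs were tested in the 4 liver groups, and the unadjusted p of 1e-05 is the smallest that these permutations can give. The libraries share their amplification protocol, and the labels do not say which share a mouse or a section.

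In nude pools rho was 0.524 and 0.454 (permutation test, adjusted p 0.00349 and 0.0150, n = 35), and in F1 pools it was 0.725 and 0.704 (adjusted p 0.000270 and 0.000480, n = 24). These differences between groups were not tested. Hbb-bs and Hbb-bt were related in both sets of captures (rho 0.557 in nude, adjusted p 0.00297, and 0.764 in F1, adjusted p 5.4e-05) and in F1 pools (0.827, adjusted p 9e-05). In nude pools the rho of Hbb-bs with Hbb-bt was 0.0651 (adjusted p 0.832).

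Single libraries broke the pattern. Nude capture 32 held 2855 alpha counts and 1 beta count, and nude capture 29 held 545 alpha and 11 beta counts. F1 pool 25 held 1595 beta counts and 1 alpha count. Beta globin was missing beside alpha counts in 5 F1 pools, all with at most 129 alpha counts. The libraries with at least 1% globin had alpha shares of 41.3% to 68.3% in the 7 F1 captures and 34.2% to 56.7% in the 5 F1 pools. Among the same libraries, the Hbb-bt share ran from 6.08% to 40.6% in captures and from 3.02% to 28.5% in pools.

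**Figure D3:**
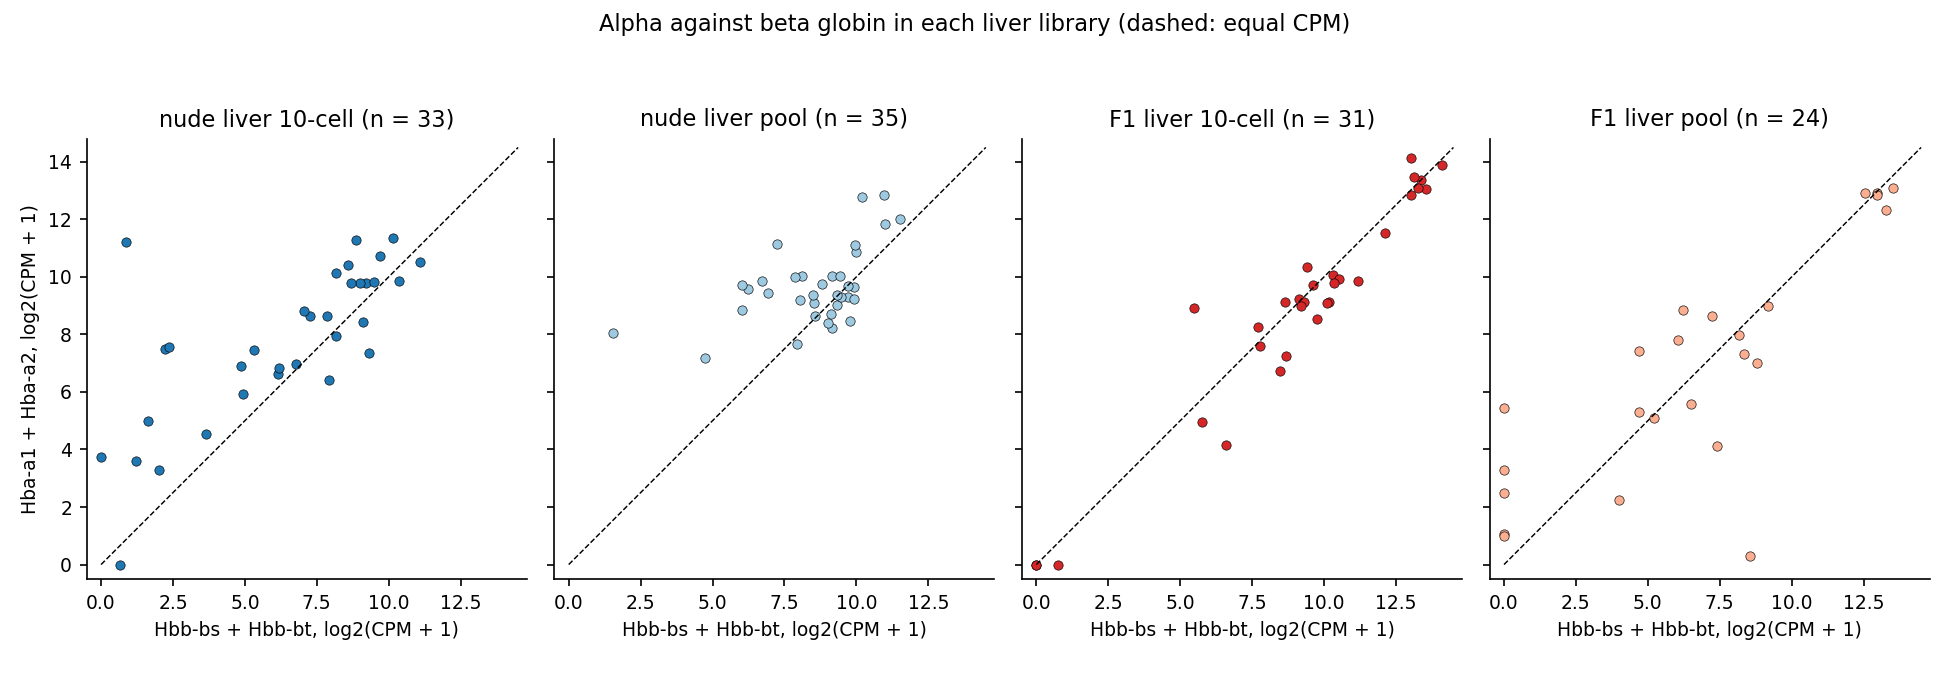
Summed alpha globin (vertical) against summed beta globin (horizontal) in each liver library, both as log2(CPM + 1), with 1 panel per group. The dashed line marks equal CPM. Nude libraries lie mostly above the line (26 of 33 captures), F1 captures lie mostly below it (21 of 31, with 8 above and 2 without globin at 0 on both axes), and a few libraries hold alpha with almost no beta globin.

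No relation of Hbb-bs with the technical measures of a library passed the test. With the percentage of ERCC counts, rho ranged from -0.195 to -0.0358 over the 4 liver groups (permutation test, adjusted p from 0.416 to 0.939). With the log2 gene total it ranged from -0.192 to 0.162 (adjusted p from 0.423 to 0.946). With Alb, which encodes the albumin secreted by hepatocytes, rho was 0.470 in F1 captures (r 0.483, adjusted p 0.0163, n = 31) and 0.180 in nude captures (r 0.0382, adjusted p 0.423, n = 33). For pools it was 0.376 in nude (adjusted p 0.0525, n = 35) and 0.372 in F1 liver (adjusted p 0.126, n = 24), and neither passed. In F1 captures of the high Rpl19-ps11 set alone, the Alb relation was 0.394 (adjusted p 0.0910).

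Genes were ranked by their rho with Hbb-bs. Among the 9748 genes with counts in at least 50% of nude captures, Hba-a1 and Hba-a2 ranked 1 and 2, and Hbb-bt, with counts in 15 of 33, was not ranked (rho 0.557). The alpha genes were followed by Mup14, a major urinary protein made by hepatocytes, and CR550303.1, which has the same counts in these captures (rho 0.609). Gcn1l1 (0.594), Ube3a, a ubiquitin ligase (0.579), and Map3k11, a kinase (0.567), came next. Among the 8881 genes in F1 captures, the other 3 globins ranked 1 to 3, followed by Cd63-ps (0.668), Trp53i13 (0.637), Nup54, a nuclear pore protein (0.634), Tgm4 (0.607) and Leprot (0.598). None of the genes named was among the 5 in both livers, and the median rho over all genes was 0.0284 in nude and 0.0649 in F1 captures.

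Alas2 marks haemoglobin-loading precursors and young reticulocytes, and it was rare. It had counts in 5 of 33 nude captures, at most 6.96 CPM, in none of 35 nude pools, in 10 of 31 F1 captures, at most 230 CPM, and in 2 of 24 F1 pools, at most 4.35 CPM. In F1 captures, Alas2 followed Hbb-bs (rho 0.679, permutation test, adjusted p 0.000116, n = 31; r 0.526, adjusted p 0.00803). In nude captures rho was 0.187 (permutation test, adjusted p 0.423, n = 33) and in F1 pools 0.396 (adjusted p 0.109, n = 24), and neither rho passed. The r was 0.0859 in nude captures (adjusted p 0.836). In F1 pools it was 0.351 and passed (permutation test, adjusted p 0.0382), with Alas2 counts in 2 of 24 pools. Alas2 was at 230, 159, 133, 62.8 and 16.8 CPM in captures 7, 12, 14, 6 and 16, and each of these 5 was among the 7 captures with at least 1% globin. The remaining 2 of the 7, captures 1 and 13, held 0.184 and 0 CPM. No other F1 capture exceeded 1.71 CPM.

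Alas2 was also read in the F1 pools with as much globin, and the difference from captures was not tested. Pools 6, 7 and 23 had no Alas2 count, pool 8 had 1 and pool 22 had 15. Their globin shares of 1.38% to 2.06% overlapped those of the 7 captures, 1.56% to 3.27%. The 0.184 and 0 CPM of captures 1 and 13 lay within the 0 to 4.35 CPM of these pools. All nude pools between 0.569% and 0.936% globin also had 0 Alas2 counts. The filter on low counts removed Alas2 from every comparison of levels, so no fitted difference is given for it.

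**Figure D4:**
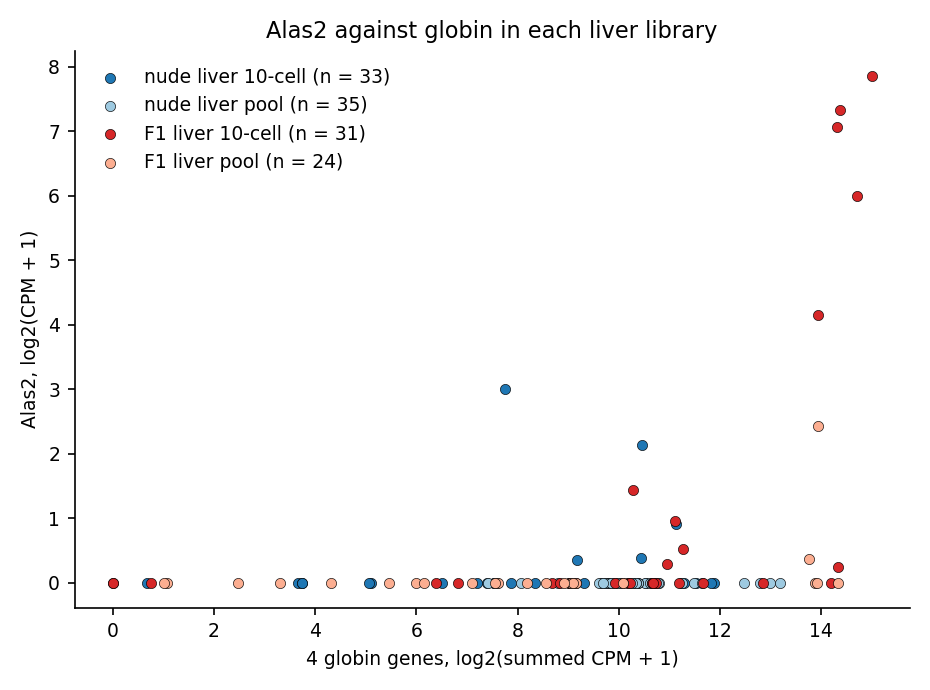
Alas2 (vertical) against the summed 4 globins (horizontal) in each liver library, both as log2(CPM + 1), with colours for the 4 liver groups. The 5 F1 captures with 16.8 to 230 CPM of Alas2 lie at the right of the plot, while F1 pools of similar globin level have at most 4.35 CPM.

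Of the 19 listed red cell membrane genes, 14 to 15 had counts in each liver group, as did 16 to 20 of the 21 late erythroid genes. In the 10-cell and pool libraries of cultured spheroids 12 to 13 and 16 to 17 did. Of the 13 listed erythroid factors, 8 to 12 had counts in each liver group and 10 to 11 in each of those spheroid groups. The genes at or near 0 named next were chosen after their values were seen. Embryonic globins Hbb-y, Hbb-bh1 and Hba-x had no count in any of the 123 liver libraries. Slc4a1, the anion exchanger of the red cell membrane, reached at most 4.72 CPM and had counts in 3 of 123 libraries. Klf1, the erythroid factor that switches on adult beta globin, had counts in 1 nude capture, and Gata1, its partner factor, in 1 F1 capture and 1 nude pool (61.5 CPM). Hemgn, a late erythroid nuclear protein, was at 0 in all F1 libraries and had counts in 2 nude captures and 5 nude pools, at up to 0.838 CPM. In the 5 captures with the most Alas2, Bpgm, which makes the phosphate ligand that lowers oxygen affinity, ran from 0 to 824 CPM and had counts in 3. In the other 26 F1 captures it ran from 0 to 132 CPM and had counts in 17. Fech, which inserts iron to finish haem, ran from 0 to 108 CPM in the 5 and from 0 to 106 CPM in the others.

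Lists of erythroid genes outside the 5, written with earlier results of these data known, are read beside the 19.2% of all genes called between the captures of the livers (11.2% higher and 7.98% lower in F1), and nothing particular to them is drawn from the counts. Of the 13 listed genes of haem synthesis and its carriers, 9 were tested between F1 and nude captures: 1 was higher and 2 were lower. The median log2 difference of the 9 was -0.24, beside 0.26 for all genes. Slc25a39, a mitochondrial carrier, was higher in F1 captures (157 ± 171 against 82.5 ± 79.4 CPM, SD, adjusted p 0.0124). Cpox, an enzyme of the haem pathway, was lower (2.29 ± 2.59 against 15.3 ± 11.7 CPM, adjusted p 4.82e-05), as was Slc25a37, the mitochondrial iron importer (3.21 ± 6.66 against 12.9 ± 13.3 CPM, adjusted p 0.0289). Of 19 red cell membrane and skeleton genes 3 were tested and edgeR, DESeq2 and limma-voom called none (0 at an unadjusted p under 0.05), and of 13 erythroid factors 3 were tested and Bcl11a alone was lower (adjusted p 0.00157). Bcl11a is also used by neurons and other cells.

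Among late erythroid and reticulocyte genes, 9 of 21 were tested between F1 and nude captures and 3 were higher and 1 lower (Bnip3l). Their median difference was 1.00. The 3 were Ubb, encoding ubiquitin (2.31 ± 0.22, SE, edgeR adjusted p 8.61e-13), Fth1, a ferritin chain (1.33 ± 0.21, adjusted p 1.42e-06), and Prdx2, a peroxide-removing enzyme (1.00 ± 0.20, adjusted p 9.63e-05). Ubb averaged 2619 ± 1157 CPM (SD) in F1 captures, 763 ± 415 CPM in nude captures and 3055 ± 809 CPM in KP1 spheroid captures. In the same order Fth1 averaged 1657 ± 938, 945 ± 403 and 1571 ± 501 CPM, and Prdx2 averaged 2161 ± 1005, 1581 ± 650 and 2147 ± 384 CPM. All 3 were lower in nude captures than in spheroids (-2.22, -0.96 and -0.62, edgeR adjusted p 6.96e-14, 2.62e-05 and 0.000982). Between F1 captures and spheroids edgeR called 0 of the 9 late genes, with 1 at an unadjusted p under 0.05, and DESeq2 called 1. Prdx2 changed sign in the 5 captures with low Rpl19-ps11 (-0.0535, adjusted p 0.948).

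Markers of liver cells were compared between the captures of the livers. The 20 hepatocyte markers summed to 33.8 to 3920 CPM in nude captures (median 880) and to 0 to 2263 CPM in F1 captures (median 189), and all 20 had counts in both groups. Of 12 tested, beside 7.98% of all genes called lower, 2 were lower in F1 captures, Alb (90.4 ± 153 against 369 ± 367 CPM, SD, edgeR adjusted p 0.0341) and Serpina1b, a protease inhibitor (4.35 ± 14.9 against 28.2 ± 44.5 CPM, adjusted p 0.0423), and none was higher. The 19 endothelial markers summed to 7.25 to 1875 CPM (median 133) in nude and 1.03 to 703 CPM (median 43.9) in F1 captures. Of 4 tested, beside 7.98% of all genes called lower, edgeR called 2, both lower in F1 captures. These were Fcgr2b, a receptor of liver sinusoids (5.55 ± 18.2 against 187 ± 359 CPM, adjusted p 7.59e-06), and Pecam1 (0.970 ± 1.13 against 11.3 ± 12.9 CPM, adjusted p 1.17e-05). Of the 19 markers, all had counts in nude captures, 16 in nude pools and 15 in captures and in pools of F1 liver. Cdh5, Clec4g, Lyve1 and Oit3 were at 0 in F1 captures, and Cdh5, Lyve1 and Oit3 were also at 0 in nude pools. The 12 markers of Kupffer cells, the macrophages of the liver, summed to 0 to 251 CPM in nude captures (median 21.5) and 0 to 356 CPM in F1 captures (median 39.3). Of these 2 were tested and edgeR, DESeq2 and limma-voom called none (0 at an unadjusted p under 0.05), with a median log2 difference of 1.16.

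Neutrophil markers summed to 1.27 to 327 CPM in nude captures and to 0.184 to 164 CPM in F1 captures. Of the 15 markers, 9 had counts in nude and 7 in F1 captures. Retnlg, Camp, Ltf and Elane were at 0 in both, and Ngp, Mpo, Mmp8 and Mmp9 were at 0 in F1 captures and had counts in 1 to 4 nude captures. Of 2 tested, beside 7.98% of all genes called lower, Cxcr2, a chemokine receptor, was lower in F1 captures (edgeR adjusted p 1.70e-05). Cxcr2 averaged 1.81 CPM in F1 captures, 29.8 CPM in nude captures and 24.4 CPM in F1 pools. It was higher in F1 pools than in F1 captures (3.85, edgeR adjusted p 0.000984) and had counts in 21 of 28 KP1 spheroid captures. Of 2 tested between F1 and nude pools, none was called. S100a8 and S100a9, which encode abundant neutrophil proteins, were at 0 in nude captures and had counts in 1 of 31 F1 captures each, at 38.4 and 121 CPM. Platelet markers summed to 56.0 to 953 CPM and 19.4 to 488 CPM, with Ppbp, Gp9 and Gp5 at 0 in both and neither of 2 tested genes called by edgeR, though both had an unadjusted p under 0.05 and DESeq2 called both (2 of 2). Pf4, a platelet chemokine, had counts in 0 of 33 nude and 3 of 31 F1 captures. Lymphocyte markers had medians of 7.39 and 2.34 CPM, and none was tested. The part of these cells in the globin difference was not tested, and in libraries of 10 pooled cells fewer cells of a type and less RNA per cell cannot be told apart.

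Haptoglobin and haemopexin bind free haemoglobin and free haem. Hp, encoding haptoglobin, was lower in F1 than in nude pools (3.77 ± 13.1 against 192 ± 279 CPM, SD, log2 difference -5.65 ± 0.89, SE, edgeR adjusted p 5.24e-06). Hpx, encoding haemopexin, was also lower there (16.8 ± 36.0 against 331 ± 349 CPM, -4.25 ± 0.85, adjusted p 0.000303). Both are secreted by hepatocytes, whose 20 markers summed to a median of 334 CPM in F1 and 893 CPM in nude pools. Of 7 of these markers tested, Apoc1 was lower in F1 pools (-2.92, edgeR adjusted p 0.0144) and none was higher, and their part in the result was not tested. Of the list's 11 genes 5 were tested in pools, 2 were lower and none was higher, beside 3.79% of all genes called lower (median -0.68 beside 0.24 over all genes). Between captures, 6 were tested and edgeR called none, with 2 at an unadjusted p under 0.05, while DESeq2 and limma-voom called 2 each. Cd163, the macrophage receptor for haptoglobin with haemoglobin, had at most 1.05 CPM in any liver library.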

How the data were processed

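The table deposited by the authors holds expected counts (model estimates of the reads of each gene) for 199 libraries, unscaled. The submitters' processing notes name RSEM and Bowtie2 and the builds GRCm38 and GRCh38.p12, with versions and roles not given in the sources used here. Counts were rounded for the count models, and the 92 ERCC spike-in rows stayed out of totals and tests. CPM was computed over the genes.

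Groups came from the labels. Levels were compared with edgeR 4.0.16 (quasi-likelihood test after TMM scaling and the filterByExpr filter) and spread with limma 3.58.1 in R 4.3.3, each fitted over all genes that passed the filter, with Benjamini-Hochberg adjustment and a threshold of 0.05. Shares and relations were tested with permutation tests of 100000 resamples (scipy 1.17.1, Python 3.11.15). A share needed at least 50 counts. DESeq2 1.42.0, limma-voom, RLE scaling, other filters, pseudocounts and library sets were alternatives. The code was tested on simulated data.

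The members and gene lists were chosen with earlier results of these data known. Besides the 5 genes, up to 3 called genes per list and comparison were named, those with the smallest adjusted p whose higher group averaged 10 CPM or more, and the 5 genes most like Hbb-bs. List genes named at or near 0, and Fech, Bpgm and Pf4, were chosen after their values were seen. Replicate numbers did not pair libraries, so the fit with them as a block is an alternative. Coordinates and coding sequences are from GENCODE M21, and promoters are from RefSeq on GRCm38.p6. PCR counts are not independent molecules, and any floor covers counting error only.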

Additional observations from a re-analysis of the deposited data

Results flagged for a closer look

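Alas2 had counts in cultured cells outside the main comparisons, where KP1 spheroid captures had none (0 counts, which allows up to 0.0241 CPM over the group from 3 counts). Bulk spheroids held 0.464 CPM in KP1, 0.138 CPM in KP2, 0.408 CPM in KP3 and 0.296 CPM in KP5, from 5.85 to 15.4 counts each. One of the 20 KP1 spheroid pools, pool 3, held 2 counts (0.426 CPM). The RPC captures summed to 0.0476 CPM, from 6 counts in 2 of 24 libraries. Bulk libraries followed a different protocol, with 1 per line, and none of these differences was tested.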

How the results depend on the processing

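The numbers of genes called moved most. Without a filter on low counts they were 8431 for nude captures against spheroids, 5072 for F1 captures against spheroids, 6294 between the captures of the livers, 5857 between the pools, 4579 for nude pools against captures and 4608 for F1 pools against captures. Keeping genes that averaged 5 CPM or more, the last 3 became 1706, 700 and 1038, and with DESeq2 1127, 455 and 844. F1 captures against spheroids gave 1709 with DESeq2, 1743 with limma-voom, 174 with spheroids of at least 0.1% ERCC counts and 379 with low Rpl19-ps11 libraries. Low Rpl19-ps11 libraries alone gave 223 between captures, 295 between pools and 0 for F1 pools against captures, where high ones gave 283. Limma-voom gave 403 for nude pools against captures. For spread, a pseudocount of 5 gave 8 in nude and 55 in F1 liver, 0.1 gave 256 in F1 liver, and high Rpl19-ps11 libraries gave 39. The cause was not tested.

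With the replicate block, calls were 204 between pools, 2 and 15 for nude and F1 pools against captures, and 11 for F1 spread. The alpha share between pools became -10.6 points (adjusted p 0.574) and the Hba-a1 share -15.2 points (adjusted p 0.0618). At most 2 of 31 same-numbered pairs of any comparison had deviations correlated above 0.1, so the libraries share only a number.

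The other shares that lost their call were the alpha share between pools at -10.9 (20 counts), -14.3 (high Rpl19-ps11) and -15.0 (per length), and the Hba-a1 share between captures at -9.15 (20 counts). The relation of Hbb-bs with Alb in F1 captures became 0.394 with high Rpl19-ps11 libraries. Values called in either setting, or given as a description, that changed sign were Hba-a1 (-0.70), Hba-a2 (-0.37) and Prdx2 (-0.0535) between captures with low Rpl19-ps11 libraries, and Hba-a1 (-3.46) and Hba-a2 (-2.37) between pools in limma-voom. Fitted values of the 5 genes that passed in neither setting also changed sign: between pools Hbb-bs with limma-voom (-2.11), Hbb-bs (-1.39), Hba-a1 (-3.40) and Hba-a2 (-1.98) with the replicate block and Hba-a1 with high Rpl19-ps11 libraries (-0.0011), the 4 globins in F1 pools against captures with low Rpl19-ps11 libraries (2.45 to 3.26), and the spread of Hbb-bt in F1 liver with a pseudocount of 5 (0.218). Levels of a few counts are limited by depth.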
